A study of Mus musculus with 6 samples.

Results

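Keratins are the intermediate filament proteins of epithelial cells. Type I and type II keratins pair with each other to form filaments, and the pair that a cell makes depends on its kind and stage. Basal keratinocytes of stratified epithelia make Krt5 with Krt14, and the layers above them make Krt1 with Krt10. Wounded or hyperproliferative epidermis and parts of the hair follicle make Krt6a, Krt6b, Krt16 and Krt17. Simple epithelia, the liver included, make Krt8 with Krt18, and the hair follicle has further keratins for its inner root sheath and its shaft.

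The keratin genes of H22 tumours were taken as the rows of the deposited table whose symbol is Krt followed by a number, with or without a letter. Keratin-associated proteins and Krtdap were left out. This gave 53 of 21720 gene symbols. They were placed by their known sites of expression into 3 basal, 12 suprabasal and 6 simple epithelial keratins, 7 of the hair inner root sheath and 15 of the hair shaft. A further 6 keratins of activated epidermis and of the companion layer formed a group of their own, and 4 were left unplaced.

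H22 is a mouse hepatocellular carcinoma cell line. It was grown under the skin of female BALB/c mice aged 6 to 8 weeks, labelled wild type. Once tumours were near 50 mm3, the control group received the vehicle, 0.5% carboxymethyl cellulose sodium, and the luteolin group received 200 mg/kg of the plant flavonoid luteolin. Both were given by gavage in 0.2 mL once a day for 21 days, and tumour RNA was sequenced in 3 libraries per group. The labels do not say whether each library came from its own mouse, so the p-values measure the spread between these libraries, which may be technical. Bulk RNA also holds host tissue, and fewer cells of a type cannot be told apart from less RNA per cell.

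Totals ranged from 66256017 to 69391357 estimated counts in the controls and from 61081637 to 80442954 with luteolin. The library luteolin 2 had the highest total and stood apart from the others in the keratins, as given below with and without it. Of the markers of the labelled liver lineage, Afp, a fetal liver protein, had 2801 to 4316 counts in the controls and 2000 to 3495 with luteolin. Scaled to library size (CPM), Afp had 43.4 to 66.7 in the controls and 32.7 to 41.8 with luteolin. Every luteolin library thus lay below every control in Afp, which held for 12.8% of all genes tested. The log2 fold change of Afp was -0.58 (edgeR's quasi-likelihood test, Benjamini-Hochberg adjusted p = 0.187). Trf, the iron carrier that the liver secretes, had 19060 to 24247 counts in the controls and 7469 to 18102 with luteolin. Alb, the main plasma protein of the liver, had 56 to 3905 and 2040 to 8118 counts. Hnf4a, a transcription factor of hepatocytes, had at most 20 counts in any library, and Ttr, a protein that the liver secretes, at most 24. Of the 8 hepatocyte markers listed, 7 were tested, and 0 passed the study threshold given below in either direction. The shares of all genes tested were 11.3% higher and 1.52% lower. The median log2 fold change of the 7 was 1.54. Afp and Trf were lower, at -0.58 and -0.86. Alb, Apoa1, Apob, Ttr and Serpina1a were at 1.57, 1.29, 1.54, 1.90 and 1.96. Markers other than Afp and Trf were chosen after their values were seen.

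Of the 53 keratins, 12 had 0 counts in every library. A further 12 were above 0 but reached at most 12 counts, and 29 exceeded 12 counts in at least 1 library. Since 1 read pair may stand for 4 units in these values, 12 counts may be as few as 3 read pairs. The number of keratins above 12 counts was 10 in each control library. With luteolin it was 21, 28 and 17 in libraries 1, 2 and 3, and all 3 lay above the controls.

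**Figure D1:**
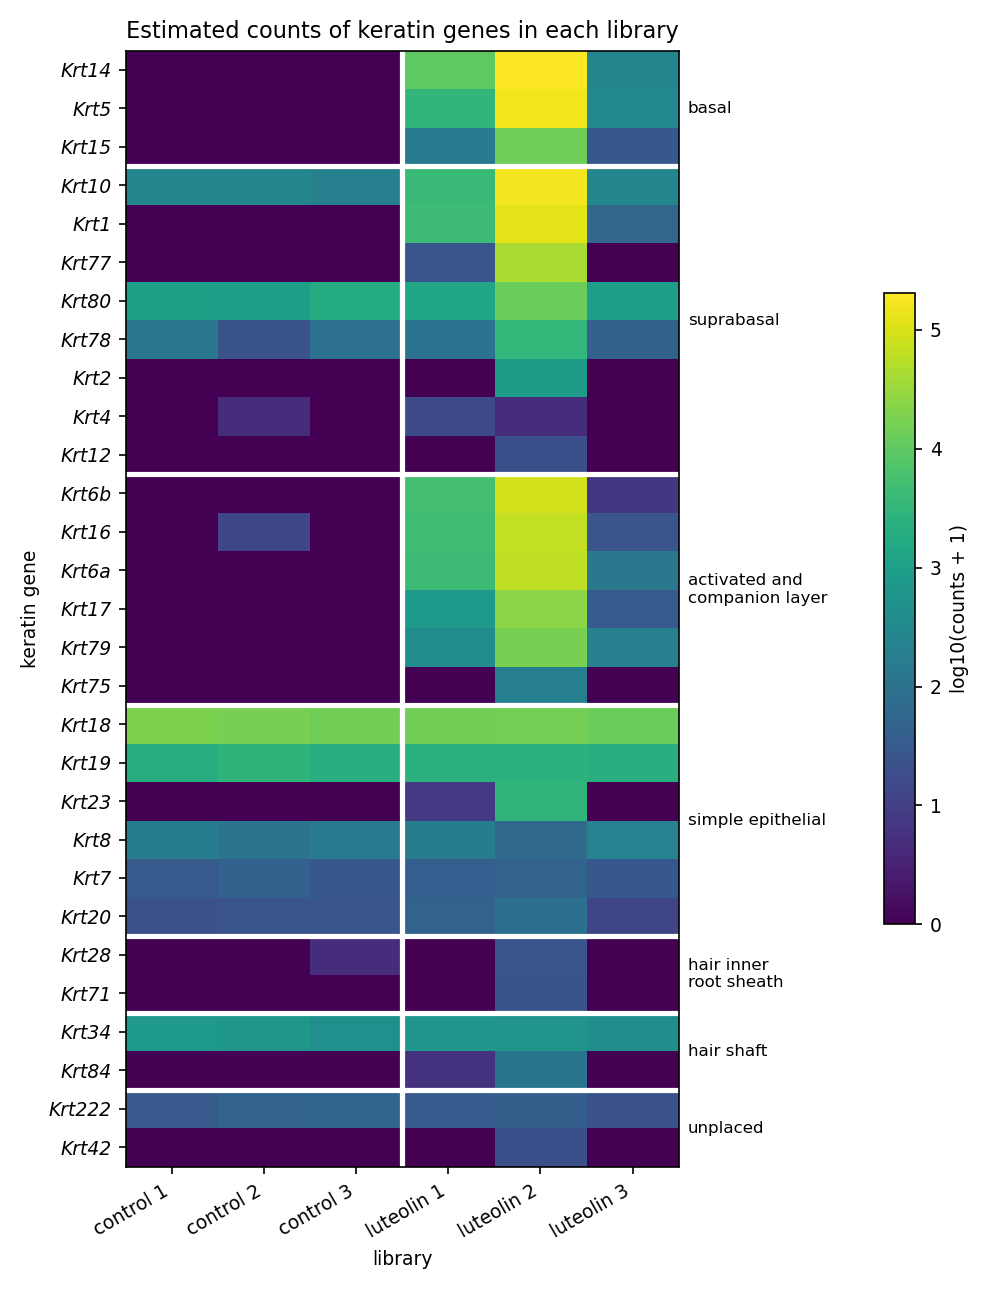
Estimated counts of the 29 keratins above 12 counts in at least 1 library, as log10(counts + 1) in colour, with genes as rows by group and libraries as columns. The basal and the activated keratins were dark in the controls and bright in luteolin 2, while Krt18, Krt19 and Krt34 had like colours in all 6 libraries.

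Summed over all 53 genes, keratins reached 330, 327 and 304 CPM in the controls, where CPM is the count scaled to library size. The sums with luteolin were 910, 12072 and 291 CPM. Keratins therefore took 0.0294 to 0.0332% of the counts of a control library, and 0.0913%, 1.25% and 0.0291% of luteolin 1, 2 and 3. The summed level of luteolin 3 lay below that of each control, although more keratins exceeded 12 counts in it. The groups differed in what made up the sum. Simple epithelial keratins were 86.4 to 90.8% of the keratin counts in the controls and 85.1% in luteolin 3, against 30.4% in luteolin 1 and 2.16% in luteolin 2.

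**Figure D2:**
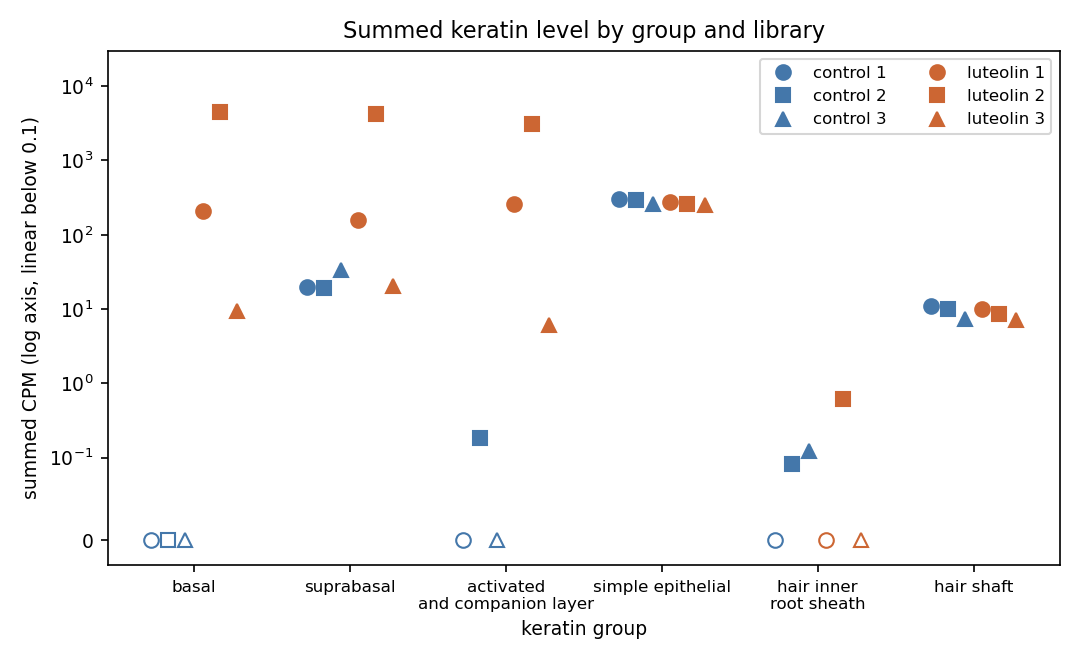
Summed CPM of each keratin group in each library, on a log axis that is linear below 0.1, with open symbols for sums of 0. Basal sums were 0 in the controls and 210, 4482 and 9.51 CPM in luteolin 1, 2 and 3, and the simple epithelial sums of all 6 libraries lay between 248 and 299 CPM.

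The first comparison asked which keratins differed between the luteolin and the control tumours. Counts were compared with edgeR's quasi-likelihood test, and a keratin was called where it passed the threshold that the study had used, a log2 fold change beyond 1 in either direction at an unadjusted p under 0.05. The filter on low counts left 18 keratins to be tested. Of these, 9 were called higher with luteolin, beside 11.3% of the 14963 genes tested, and 0 were called lower, beside 1.52%. The 9 were Krt5, Krt14 and Krt15 of the basal layer, Krt1 and Krt10 of the suprabasal layers, and Krt6a, Krt16, Krt17 and Krt79.

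With Benjamini-Hochberg adjustment over all genes, edgeR's quasi-likelihood test called 0 keratins at an adjusted p under 0.05, against 1.34% of genes called higher and 0.187% called lower. The unadjusted p of the 9 keratins ran from 0.0045 to 0.0174 and the adjusted p from 0.0961 to 0.159. DESeq2 called 6 at an adjusted p under 0.05 and limma's voom with sample quality weights called 2. For Krt5, Krt10 and Krt15 DESeq2 gave no p.

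The filter has to be read with these counts. On the control libraries alone 10 of the 18 keratins would have passed it, and 1 of those 10, Krt10, was called. The other 8 passed through their luteolin libraries, and all 8 were called. In these 8 every luteolin library lay above every control library, which held for 15.9% of all genes tested. That order follows from the way they passed, since it takes all 3 luteolin libraries where the controls are at or near 0, and it held for none of the 10. The median log2 fold change of the 18 was 5.50, against -0.01 over all genes tested, and that of the 10 was 0.08.

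The 3 luteolin libraries were far apart in these keratins. In each of the 9 called keratins luteolin 2 was the highest, luteolin 1 the next and luteolin 3 the lowest of the 3. In CPM, luteolin 2 had 10.5 to 63.8 times the level of luteolin 1, with a median of 23.0. Luteolin 1 had 1.90 to 199 times the CPM of luteolin 3, with a median of 24.0. Without luteolin 2, edgeR again called these 9 keratins at the study threshold, and 1 of them, Krt79, had an adjusted p under 0.05. Without luteolin 3, 13 were called and 1, Krt16, had an adjusted p under 0.05.

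Krt14 and Krt5, the filament pair of basal keratinocytes, had 0 counts in all 3 controls. Krt14 had 9606, 203754 and 277 counts in luteolin 1, 2 and 3, or 157, 2439 and 4.33 CPM. All 3 luteolin libraries were above the controls, and 95.4% of the Krt14 counts of the group lay in luteolin 2. Taken against a floor of 3 counts per control library, mean Krt14 was at least 19147-fold higher with luteolin, and at least 4787-fold against 12 counts (edgeR's quasi-likelihood test, Benjamini-Hochberg adjusted p = 0.110). Without luteolin 2 the bound was 1780-fold.

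Krt5 had 3088, 157355 and 303 counts in the luteolin libraries. It was at least 14276-fold higher against 3 counts and 3569-fold against 12 counts (edgeR's quasi-likelihood test, Benjamini-Hochberg adjusted p = 0.120), and 609-fold against 3 counts without luteolin 2. Krt15, a type I keratin of basal cells that is also known from the hair follicle bulge, had 0 counts in the controls and 154, 13399 and 28 counts with luteolin. Its bounds were 1203-fold and 301-fold, or 32.6-fold against 3 counts without luteolin 2, and its adjusted p by the same test was 0.159. The 3 basal keratins thus shared the order of the libraries but not the size of the gaps, since in CPM luteolin 2 exceeded luteolin 1 by 15.5 times for Krt14, 37.4 times for Krt5 and 63.8 times for Krt15.

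Krt10, the type I keratin of the suprabasal layers, was the one called keratin that the controls clearly held. It had 273, 277 and 208 counts in the controls and 3744, 168210 and 272 counts with luteolin. Luteolin 1 and 2 were above every control, and luteolin 3 lay within their range. The mean was 3.80 ± 0.53 CPM in the controls and 693 ± 1144 CPM with luteolin (SD, n = 3 each). The log2 fold change was 7.51 with a standard error of 2.15 (edgeR's quasi-likelihood test, Benjamini-Hochberg adjusted p = 0.128). Without luteolin 2 it was 3.12.

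Krt1, the type II partner of Krt10, had 0 counts in the controls and 4460, 122979 and 55 counts with luteolin. It was at least 11383-fold higher against 3 counts and 2846-fold against 12 counts (edgeR's quasi-likelihood test, Benjamini-Hochberg adjusted p = 0.136). Without luteolin 2 the first bound was 814-fold. The controls therefore held Krt10 at 208 to 277 counts with no count of its partner.

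Promoter sequence is shown for 1 called keratin with 0 control counts and 1 that the controls held, as the 250 bases before a listed start on GRCm38.p6. The listed start of Krt5 is the 5′ end of its RefSeq gene. That of Krt10 lies 8085 bases from the 5′ end of its RefSeq gene, so its window is not the sequence next to that end. Both genes lie on the minus strand and are shown 5′ to 3′. The Krt5 window lies at chr15:101712906-101713155 and Krt10 at chr11:99389365-99389614. Capitals mark matches, on either strand, to a TATA box with the letters TATAAA, an AP-1 site with the letters TGANTCA, a nuclear factor Y box with the letters CCAAT, a GC box with the letters GGGCGG or an AP-2 site with the letters GCCNNNGGC.
Krt5: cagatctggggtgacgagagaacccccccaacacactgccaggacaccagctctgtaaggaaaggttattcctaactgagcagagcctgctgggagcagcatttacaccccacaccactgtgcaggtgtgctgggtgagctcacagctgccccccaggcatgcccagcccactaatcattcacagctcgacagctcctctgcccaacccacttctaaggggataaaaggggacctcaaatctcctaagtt
Krt10: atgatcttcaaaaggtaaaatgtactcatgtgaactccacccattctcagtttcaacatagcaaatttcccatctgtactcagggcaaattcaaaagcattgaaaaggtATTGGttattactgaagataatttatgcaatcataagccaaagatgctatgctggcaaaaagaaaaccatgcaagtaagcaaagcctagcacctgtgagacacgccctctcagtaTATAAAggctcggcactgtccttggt
The Krt10 window held TATAAA and, on the opposite strand, CCAAT, and the Krt5 window held none of the 5 motifs. Its GC content was 56.0%, against 39.6% for Krt10. TATAAA occurred in 17 of the 36 keratins that have a promoter in the table, and in 12.4% of all 32851 promoters of this length. The 36 include other listed starts away from the RefSeq end, such as that of Krt78 at 42337 bases. The shares of all promoters were 6.75% for TGANTCA, 33.8% for CCAAT, 32.7% for GGGCGG and 13.7% for GCCNNNGGC. These matches are descriptions of sequence only.

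Krt77, a type II keratin of the skin, had 0 counts in the controls and 24, 42639 and 0 counts with luteolin. It did not pass the filter and was not tested, and 99.9% of its luteolin counts lay in luteolin 2. Its bound against 3 counts was 3761-fold with luteolin 2 and 4.33-fold without it. Krt80, a type II keratin found in many epithelia, had 974, 925 and 1834 counts in the controls and 1290, 13100 and 923 with luteolin. Its groups overlapped, and luteolin 2 alone stood above the rest. The log2 fold change of Krt80 was 1.76 with a standard error of 0.90 (edgeR's quasi-likelihood test, Benjamini-Hochberg adjusted p = 0.331), and it was -0.070 without luteolin 2.

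Among the other suprabasal keratins, Krt78 had 133, 22 and 94 counts in the controls and 106, 3304 and 44 with luteolin (log2 fold change 3.50, edgeR's quasi-likelihood test, Benjamini-Hochberg adjusted p = 0.259). Krt2, a keratin of the upper epidermis, had 860 counts in luteolin 2 and 0 in the other libraries. Krt12, the keratin of the cornea, had 19 counts in luteolin 2, and Krt24 had 8 there, with 0 elsewhere. Krt4, which lines the mouth and oesophagus, reached at most 16 counts. Its usual partner Krt13 was at 0 in all 6 libraries, as were Krt9, a keratin of footpad skin, and Krt76. A count of 0 here allows up to 3 counts, or 0.0359 to 0.0490 CPM depending on the library, and this floor covers counting error only.

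Of the keratins of activated epidermis, the controls held at most 12 counts. Krt6b had 0 counts in the controls and 5650, 89832 and 6 counts with luteolin, at least 8598-fold higher against 3 counts and 2150-fold against 12 counts. It did not pass the filter and was not tested. Its paralogue Krt6a had 0 counts in the controls and 4331, 64518 and 130 with luteolin, with bounds of 6223-fold and 1556-fold (edgeR's quasi-likelihood test, Benjamini-Hochberg adjusted p = 0.114). Without luteolin 2 the bounds against 3 counts were 1020-fold for Krt6b and 804-fold for Krt6a.

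Both genes are partly alike, and 30.6% of the 100-base stretches of each Krt6 transcript set occur in another gene. Most of these, 30.1% of Krt6b and 26.6% of Krt6a, occur in the other one. The split of reads between Krt6a and Krt6b is therefore uncertain. In luteolin 1 and 2 Krt6a had 0.767 and 0.718 times the counts of Krt6b, whereas luteolin 3 had 130 counts of Krt6a and 6 of Krt6b.

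Krt16, the type I partner of the Krt6 proteins, had 0, 12 and 0 counts in the controls and 4569, 65596 and 24 with luteolin. All luteolin libraries lay above the controls. Its log2 fold change was 12.16, or 9.24 without luteolin 2, and it had the smallest p of the keratins (edgeR's quasi-likelihood test, Benjamini-Hochberg adjusted p = 0.0961). Of its 100-base stretches 24.3% occur in another gene, 21.1% in Gm11597, which has no row in the table. Krt17, a type I keratin of hair follicle and wounded skin, had 0 counts in the controls and 759, 23839 and 33 with luteolin. Its bounds were 2196-fold and 549-fold, or 143-fold against 3 counts without luteolin 2, and its adjusted p by the same test was 0.142.

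Krt79, known from the hair follicle canal, and Krt75, from the companion layer of the follicle, differed in the number of libraries that held them. Krt79 had 0 counts in the controls and 367, 16428 and 202 counts with luteolin, with bounds of 1515-fold and 379-fold (edgeR's quasi-likelihood test, Benjamini-Hochberg adjusted p = 0.114), and 101-fold against 3 counts without luteolin 2. Krt75 had 191 counts in luteolin 2 and 0 in the other 5 libraries, and it was not tested.

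The ratios of keratins within a library do not depend on its total. They were read where both genes exceeded 12 counts, with exact binomial 95% intervals that cover counting error only and are too narrow where 1 read pair counts as 4 units. Krt5 over Krt14, the basal pair, was 0.321 (0.309 to 0.335) in luteolin 1, 0.772 (0.767 to 0.777) in luteolin 2 and 1.09 (0.926 to 1.29) in luteolin 3. Krt1 over Krt10, the suprabasal pair, went the other way, with 1.19 (1.14 to 1.24), 0.731 (0.726 to 0.737) and 0.202 (0.149 to 0.271). In each pair the intervals of the 3 libraries did not overlap. The Krt10 counts of luteolin 3 lay within the range of the controls.

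Krt6b over Krt16 was close in luteolin 1 and 2, at 1.24 (1.19 to 1.29) and 1.37 (1.36 to 1.38). Krt16 over Krt14 was 0.476 (0.459 to 0.493), 0.322 (0.319 to 0.325) and 0.0866 (0.0546 to 0.132) in luteolin 1, 2 and 3. Krt79 over Krt14 was 0.0382 (0.0343 to 0.0424), 0.0806 (0.0794 to 0.0819) and 0.729 (0.605 to 0.877). Relative to Krt14, luteolin 3 thus had the least Krt16 and the most Krt79 of the 3 libraries. Krt77 over Krt1 was 0.00538 (0.00344 to 0.00802) in luteolin 1 and 0.347 (0.343 to 0.351) in luteolin 2, the widest gap between these 2 libraries among the pairs read.

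**Figure D3:**
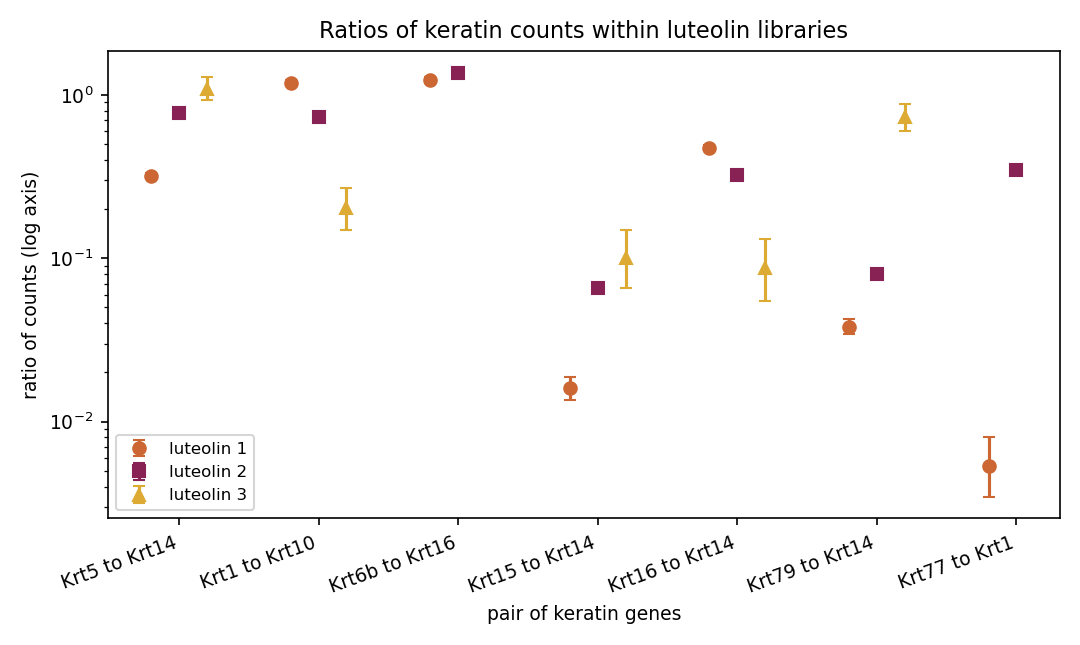
Ratio of the counts of 7 keratin pairs within each luteolin library, on a log axis, with bars for exact binomial 95% intervals, for libraries with more than 12 counts of both genes. Krt5 over Krt14 ran from 0.321 to 1.09 and Krt1 over Krt10 from 1.19 down to 0.202 across luteolin 1, 2 and 3.

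The make-up of the stratified keratins was also read over the 18 basal, suprabasal and activated keratins with at most 12 counts in each control, which leaves out Krt10, Krt78 and Krt80. In luteolin 1 they summed to 33024 counts, with 38.9% basal (95% exact interval 38.4 to 39.4%), 13.6% suprabasal (13.3 to 14.0%) and 47.5% activated (46.9 to 48.0%). In luteolin 2 they summed to 801421 counts, with 46.7%, 20.8% and 32.5%. In luteolin 3 they summed to 1058 counts, with 57.5% basal (54.4 to 60.5%), 5.20% suprabasal (3.94 to 6.71%) and 37.3% activated (34.4 to 40.3%). The activated share was highest in luteolin 1, the suprabasal share in luteolin 2 and the basal share in luteolin 3.

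The simple epithelial keratins formed the other large block, and all but Krt23 were held by every library. Of the 6, 5 were tested and 0 were called in either direction by edgeR's quasi-likelihood test. Of all genes tested 11.3% were called higher and 1.52% lower. At an unadjusted p under 0.05 there were 0 of the 5, beside 20.5% of all genes. The median log2 fold change of the 5 was 0.06. Summed, the 6 simple epithelial keratins reached 299, 297 and 263 CPM in the controls and 277, 261 and 248 CPM with luteolin.

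Krt18, the type I keratin of simple epithelia, was the most abundant keratin of the controls. It had 18565, 16217 and 14487 counts in the controls and 14339, 16103 and 13377 with luteolin. The mean was 247 ± 20.7 CPM in the controls and 212 ± 20.8 CPM with luteolin (SD, n = 3 each), and the groups overlapped. The log2 fold change was -0.22 with a standard error of 0.14 (edgeR's quasi-likelihood test, Benjamini-Hochberg adjusted p = 0.454).

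Krt19, the smallest type I keratin and a marker of ducts, had 2075, 2847 and 2243 counts in the controls and 2357, 2514 and 2191 with luteolin. Its means of 36.1 ± 7.24 and 34.3 ± 4.20 CPM (SD, n = 3 each) differed by less than their spread (log2 fold change -0.08, edgeR's quasi-likelihood test, Benjamini-Hochberg adjusted p = 0.882). Krt7 had 28 to 42 counts in the controls and 28 to 49 with luteolin. Krt20, a keratin of the gut, had 20 to 24 counts in the controls and 49, 85 and 12 with luteolin, with an adjusted p of 0.524 by the same test.

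Krt8, the type II partner of Krt18, was far lower than Krt18 in every library. It had 173, 111 and 163 counts in the controls and 165, 66 and 226 with luteolin, and the groups overlapped (log2 fold change 0.06, edgeR's quasi-likelihood test, Benjamini-Hochberg adjusted p = 0.970). Krt18 exceeded Krt8 by 88.9 to 146 times in the controls, and by 86.9, 244 and 59.2 times in luteolin 1, 2 and 3. Per kilobase of annotated exon, the excess was 121 to 199 times in the controls and 118, 332 and 80.7 times with luteolin. Of the 100-base stretches of Krt8, 16.9% occur in another gene, among them the pseudogene Krt8-ps, which has no row in the table, whereas Krt18 shares none. How the counting treated such reads was not given in the sources used here.

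The log2 ratio of Krt8 to Krt18 averaged -6.80 ± 0.36 in the controls and -6.75 ± 1.06 with luteolin (SD, n = 3 each). The difference of 0.05 was not past the spread (exact two-sided permutation test, p = 0.9, where the smallest p that 3 libraries against 3 allow is 0.1). The luteolin libraries were spread more widely than the controls, with luteolin 2 at the lowest ratio of the 6 libraries and luteolin 3 at the highest.

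Krt23, grouped with the simple epithelial keratins, had the order of the stratified ones. It had 0 counts in the controls and 7, 2973 and 0 with luteolin, and it was not tested. Against a floor of 3 counts its mean was at least 263-fold higher with luteolin, and 65.7-fold against 12 counts. This rests on luteolin 2, which held 99.8% of the luteolin counts.

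**Figure D4:**
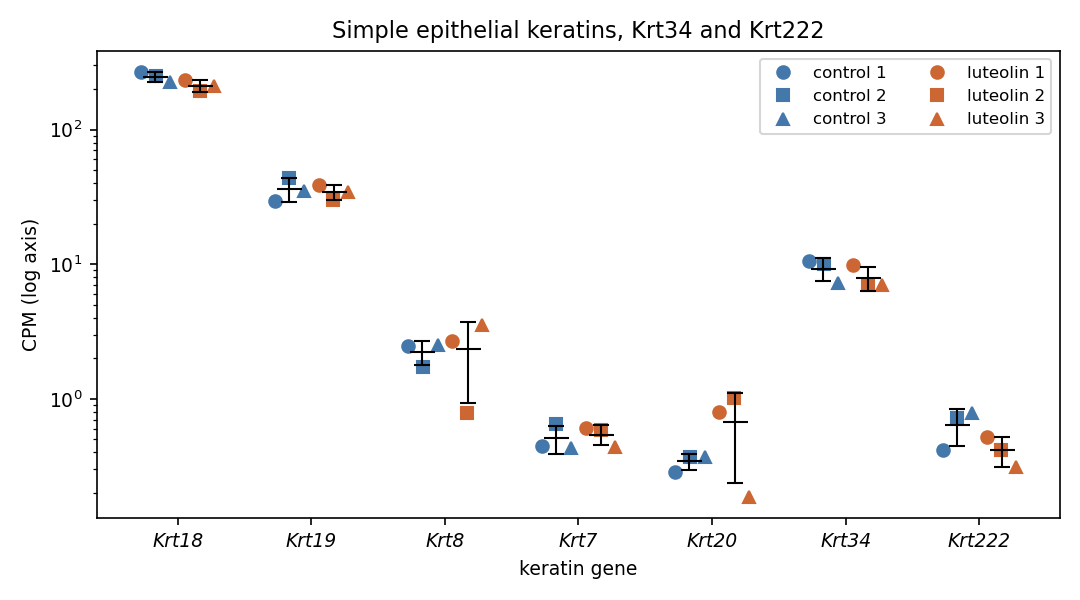
CPM of 5 simple epithelial keratins, Krt34 and Krt222 in each library on a log axis, with black bars for the mean ± SD of the 3 libraries of a group. The groups overlapped in all 7 genes, and Krt18 lay above its partner Krt8 in each library.

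Few hair keratins were detected. Of the 15 of the hair shaft, 5 had 0 counts in every library and 8 reached at most 12 counts. Krt34, a type I keratin of the hair shaft, was the exception and was held by all libraries, with 738, 647 and 465 counts in the controls and 601, 581 and 447 with luteolin. The groups overlapped (log2 fold change -0.22, edgeR's quasi-likelihood test, Benjamini-Hochberg adjusted p = 0.729). Its close paralogues Krt31 and Krt33a reached at most 10 and 3 counts, and 17.5% of the 100-base stretches of Krt34 occur in another gene.

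Krt84, a type II keratin of hair and nail, had 5 and 114 counts in luteolin 1 and 2 and 0 in the other libraries. Of the rest, Krt86 and Krt83 reached 12 counts, Krt33b and Krt32 8 counts, Krt39 5 and Krt87 4 counts. Krt35, Krt36, Krt40, Krt81 and Krt82 were at 0 in every library. Of the 7 inner root sheath keratins, Krt28 had 24 and Krt71 22 counts in luteolin 2. Krt27 reached 6 counts, in control 2, and Krt72 5 counts, in luteolin 2, and Krt25, Krt26 and Krt73 were at 0 in every library. None of these 7 was tested.

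Keratin-associated proteins, the matrix between the keratin filaments of the hair shaft, were as scarce. The table held 57 Krtap genes, of which 48 were at 0 in every library. Of the others 2 exceeded 12 counts, both in luteolin 2 alone. The 2 are named after their values were seen, Krtap3-2 with 103 counts and Krtap3-3 with 13. The hair shaft keratins summed to 8.63 CPM in luteolin 2, mostly Krt34, beside 4482 CPM of basal keratins.

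Of the 4 unplaced keratins, Krt222, an unusual short member, had 29 to 51 counts in the controls and 20 to 35 with luteolin (log2 fold change -0.62, edgeR's quasi-likelihood test, Benjamini-Hochberg adjusted p = 0.606). Krt42 had 19 counts and Krt90 8 counts in luteolin 2 and 0 elsewhere, and Krt88 was at 0 in every library. Krt222 overlaps the RefSeq gene Gm32385. Krt6a overlaps Gm49428 and Krt80 overlaps Gm35853 and Mir1941, and without the strand of the counting, reads from such pairs cannot be told apart.

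The genes that work with keratins were read from 4 lists, of transcription factors of keratinocytes, of the desmosome, of the hemidesmosome and of filament bundling. Of 32 genes, 25 were tested, and 8 were called higher and 1 lower at the study threshold, beside 11.3% and 1.52% of all genes tested. As with the keratins, 6 of the 25 passed the filter through their luteolin libraries, and 5 of these were among the 8. Of the 19 that passed on the controls alone, 3 were called higher. The median log2 fold change was 1.29 over the 25 and 0.89 over the 19, against -0.01 over all genes. At an adjusted p under 0.05, 0 were called higher, beside 1.34% of all genes tested. At that threshold 1 was called lower, beside 0.187%, with a log2 fold change that did not reach the study threshold. This was Dst, a linker of keratin filaments to hemidesmosomes, with 51412 to 59994 counts in the controls and 31081 to 40807 with luteolin (log2 fold change -0.71, edgeR's quasi-likelihood test, Benjamini-Hochberg adjusted p = 0.0493).

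The summed level of the filament bundling and cross-linking genes was 9.60 to 13.5 CPM in the controls and 68.1, 1121 and 9.80 CPM with luteolin. Of the 6 tested, 3 were called higher and 1 lower, beside 11.3% and 1.52% of all genes tested. Of the 3 called higher, 2 passed the filter through their luteolin libraries. The 3 genes that passed on the controls alone had a median log2 fold change of -0.62. The genes did not all share the order of the sum. Padi1, an enzyme that modifies keratins and filaggrin, was the one called lower and had 4.26 to 8.33 CPM in the controls and 0.882, 1.47 and 3.47 CPM with luteolin. Rptn had 0 CPM in the controls and 12.6, 10.3 and 0.266 CPM with luteolin, and both are named here with their values known. Hrnr, a filaggrin-like protein, had 0 counts in the controls and 373, 36928 and 0 with luteolin. Krtdap, a protein of differentiating keratinocytes, had 0 counts in the controls and 903, 27727 and 25 with luteolin.

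Desmosome genes summed to 352 to 390 CPM in the controls and 380, 2887 and 252 CPM with luteolin. Of the 7 tested 1 was called higher, beside 11.3% of all genes tested. That gene passed the filter through its luteolin libraries, and of the 6 that passed on the controls alone 0 were called higher. Dsp, which ties keratin filaments to the desmosome, had 11632 to 12045 counts in the controls and 11973, 122837 and 9062 with luteolin. Jup, its plaque partner, had 4191 to 6952 counts in the controls and 4959, 31652 and 3786 with luteolin. In counts luteolin 2 alone lay above the controls in both genes. In CPM this held for Jup, whereas for Dsp luteolin 1 also lay above the controls, at 195 against 172 to 186 CPM. Of the 5 hemidesmosome genes 1 was called higher, beside 11.3% of all genes tested, and it too passed the filter through its luteolin libraries. Of the 4 that passed on the controls alone 0 were called higher. Plec, a linker of filaments, had 49009 to 81935 counts in the controls and 59341 to 105214 with luteolin.

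Of the keratinocyte transcription factors, 7 of 9 were tested and 3 were called higher, beside 11.3% of all genes tested. Of these 3, 1 passed the filter through its luteolin libraries. Klf4 had 2662 to 2945 counts in the controls and 4103, 9984 and 3056 with luteolin, and Klf5 had 3112 to 3755 and 4286, 7725 and 3947 counts. All luteolin libraries were above the controls in both, which held for 15.9% of all genes tested. Their log2 fold changes of 0.89 and 0.55 were below the threshold of size. Trp63, the master regulator of stratified epithelium, was chosen after its values were seen. It had 13, 4 and 0 counts in the controls and 166, 6198 and 33 with luteolin. Flg, which bundles keratin filaments in the upper epidermis, was also chosen after its values were seen and had 0 counts in the controls and 1344, 11513 and 4 with luteolin.

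**Figure D5:**
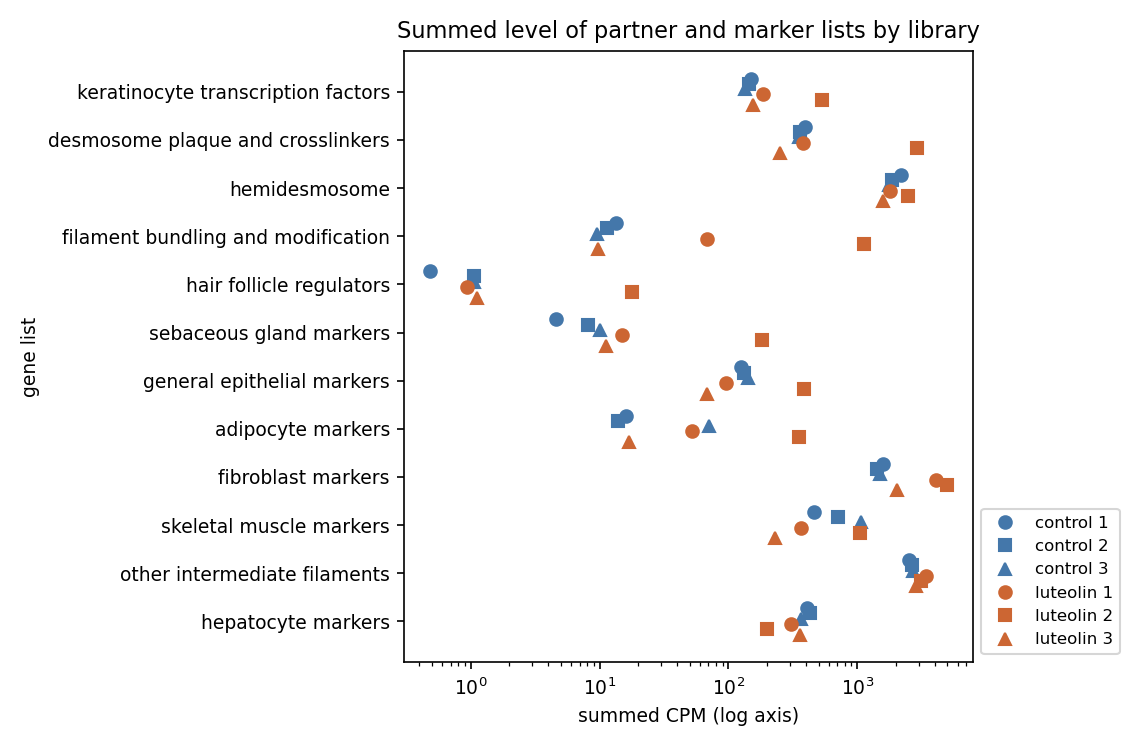
Summed CPM of partner and marker lists in each library, on a log axis. Filament bundling genes lay at 9.60 to 13.5 CPM in the controls and at 68.1, 1121 and 9.80 CPM in luteolin 1, 2 and 3, while other intermediate filament genes lay between 2536 and 3437 CPM in all 6 libraries.

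Intermediate filament genes other than keratins were summed at 2536 to 2710 CPM in the controls and 3437, 3107 and 2875 CPM with luteolin, with each luteolin sum above every control. Of 15 such genes 11 were tested by edgeR, with 2 at an unadjusted p under 0.05, beside 20.5% of all genes tested. At the study threshold 0 were called higher, beside 11.3%, and 1 was called lower, beside 1.52%. The 1 called lower was Bfsp2, at a log2 fold change of -1.96, named with its values known. The median log2 fold change of the 11 was 0.06. Vim, the filament protein of mesenchymal cells, had 132811 to 135766 counts in the controls and 145578 to 188974 with luteolin. Lmna, a filament protein of the nuclear envelope, had 8411 to 11401 counts in the controls and 14250, 28488 and 12371 in luteolin 1, 2 and 3, the order of the called keratins. In 3 of the 11 tested genes, these 2 among them, every luteolin library lay above every control in CPM, beside 15.9% of all genes tested. The third was Nefh, with 10 to 20 counts in the controls and 20 to 35 with luteolin.

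Markers of other cells moved beside the keratins to different degrees. Of the 6 general epithelial markers tested 4 were called higher, beside 11.3% of all genes, and 2 of the 4 had passed the filter through their luteolin libraries. Epcam, an adhesion protein of simple epithelia, had 8224 to 8692 counts in the controls and 3730, 8520 and 2980 with luteolin. In CPM it had 119 to 135 in the controls and 60.9, 102 and 46.6 with luteolin. Every luteolin library thus lay below every control, which held for 12.8% of all genes tested (log2 fold change -0.86, edgeR's quasi-likelihood test, Benjamini-Hochberg adjusted p = 0.169). Cdh1, the epithelial cadherin, had 268 to 383 counts in the controls and 1754, 12581 and 1296 with luteolin (log2 fold change 3.76, edgeR's quasi-likelihood test, Benjamini-Hochberg adjusted p = 0.0758). Luteolin 3 was thus above the controls in Cdh1 while its summed keratins were the lowest of the 6 libraries.

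Sebaceous gland markers summed to 4.59 to 10.1 CPM in the controls and 14.8, 182 and 11.2 CPM with luteolin. Of these 3 of 6 were called higher, beside 11.3% of all genes tested, and 2 of the 3 had passed the filter through their luteolin libraries. Adipocyte markers summed to 13.9 to 70.2 CPM in the controls and 52.3, 355 and 16.8 CPM with luteolin. Of these 0 of 5 were called by edgeR, beside 11.3% of all genes called higher and 1.52% lower. At an unadjusted p under 0.05 there were 0, beside 20.5% of all genes. Both lists had luteolin 2 as the highest of the 6 libraries, as the keratins had. Hair follicle regulators summed to at most 1.07 CPM in the controls and 0.93, 17.7 and 1.11 CPM with luteolin. Skeletal muscle markers summed to 461 to 1059 CPM in the controls and 367, 1050 and 231 CPM with luteolin. Of these 0 of 6 were called by edgeR and 0 had an unadjusted p under 0.05, beside the same shares of all genes. The muscle sums with luteolin had the order of the called keratins, and luteolin 2 lay within the range of the controls.

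Fibroblast markers summed to 1408 to 1575 CPM in the controls and 4067, 4976 and 2012 CPM with luteolin. Of these 4 of 6 were called higher, beside 11.3% of all genes tested. Leukocyte markers summed to 149 to 225 CPM in the controls and 294 to 397 CPM with luteolin. Of these 3 of 6 were called higher, beside the same 11.3%, with Cd8a at 0.0331 (edgeR's quasi-likelihood test, Benjamini-Hochberg adjusted p). In both lists each luteolin sum lay above every control, luteolin 3 included. Mammary, mesothelial and melanocyte markers had 1 of 2, 0 of 2 and 0 of 1 tested genes called higher, beside the same 11.3%. The 1 mammary gene had passed the filter through its luteolin libraries. Dct, an enzyme of melanocytes, had 0 counts in the controls and 8, 161 and 0 with luteolin. The part of these other cell types in the keratin values was not tested.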

How the data were processed

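RNA-seq of H22 tumours from 3 control and 3 luteolin libraries was analysed. The authors deposited 1 table of whole-number estimated counts per gene symbol, not scaled between libraries. The submitters' processing notes name bcl2fastq 2.0, HISAT2, StringTie and DESeq2, and the builds rn6 and mm39 with no role, so no coordinates were read from the table. Multiples of 4 made up 44.8% of the values between 1 and 40, against 25.0% if residues were evenly used. So 1 read pair may be worth 4 units, which was not tested, and the counts may be less precise than their size. A count of 0 was given a floor of 3 counts, and also of 12. Intervals and floors cover counting error only.

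Groups were taken from the sample titles. All genes were fitted in R 4.3.3 with edgeR 4.0.16 (TMM, filterByExpr, quasi-likelihood test, no covariates, two-sided, Benjamini-Hochberg adjustment), which tested 14963 genes, after the script was tested on simulated data. Keratins were called where the log2 fold change was beyond 1 in either direction at an unadjusted p under 0.05 (the study's rule), and separately by an adjusted p under 0.05. CPM is scaled to the TMM library total. The ratio of Krt8 to Krt18 was compared with an exact permutation test (scipy 1.17.1). Shared 100-base stretches and exon lengths came from GENCODE M21 transcripts, and promoters from RefSeq on GRCm38.p6.

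Named with each value are the basal keratins, the 4 keratins of each other group with the highest mean CPM and above 12 counts in a library, any at an adjusted p under 0.05 and any called lower. From each other list the 2 genes with the highest mean CPM and any at an adjusted p under 0.05 are named, though not every list is walked through. The other keratins are given to account for all 53. The members and lists were chosen with earlier results of these data known. Alternatives were DESeq2 1.42.0, voom with sample quality weights (limma 3.58.1), RLE and upper-quartile normalization, no filter, at least 10 counts in every library, values divided by 4, a replicate block and each library left out.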

Additional observations from a re-analysis of the deposited data

How the results depend on the processing

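At the study's threshold 9 keratins were called higher, and this became 2 with voom and sample quality weights (Krt15 and Krt79), 14 with no filter on low counts and 2 where every library had to hold at least 10 counts (Krt10 and Krt78). Leaving out each library gave 9 to 13. At an adjusted p under 0.05, where edgeR called 0, DESeq2 called 6 (Krt1, Krt14, Krt16, Krt17, Krt6a and Krt6b) and voom 2, and leaving out each library gave 0 to 1, Krt79 without luteolin 2 and Krt16 without luteolin 3. In none of these settings was a keratin called lower. RLE and upper-quartile normalization each kept 9, and values divided by 4 gave 6. With the replicate number as a block, 8 keratins were called at the study threshold and 8 at an adjusted p under 0.05, and the log2 fold change of Krt8 turned to -0.16. The correlations of same-numbered deviations were -0.20, -0.09 and 0.06, and the others ran from -0.12 to 0.20. They gave no sign that the numbers pair the libraries. They cannot exclude it, since the deviations within a group of 3 sum to 0. The Krt8 to Krt18 difference ran from -0.38 to 0.64 with each library left out, with -0.14 without control 2, -0.11 without luteolin 1 and -0.38 without luteolin 3. With each library left out, the log2 fold change of Krt80 ran from -0.070 (without luteolin 2) to 2.18, that of Krt19 from -0.22 to 0.080 (positive without control 2 and without luteolin 2) and that of Krt8 from -0.38 to 0.49 (negative without control 2, luteolin 1 or luteolin 3). Of the single-keratin values, 164 kept their direction and side of the threshold, 8 lost the call, 3 gained it and 7 turned in direction. With no filter and with the minimum of 10 counts, the number of keratins tested changed from 18 to 41 and 10. It was 12 with values divided by 4, where Krt15, Krt16 and Krt17 were no longer tested. It was 32 with DESeq2, where Krt5, Krt10 and Krt15 had no p, and 20 without a control library or without luteolin 3. Otherwise the cause was not tested. Groups of 3 libraries with 1 far above the others limit what these tests can call, and keratins at 0 in all controls have bounds, not sizes.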
